A study of Mus musculus with 12 samples.

Results

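C1qa, C1qb, Hmox1, Stab1 and Irg1, transcripts that splenic macrophages are known to make were followed through RNA sequencing of T cells sorted from mouse spleen. They are 5 of the 13404 rows of the count table, and all 5 were among the 9495 genes with enough counts to test. They were picked from their levels in these same 12 libraries, so their levels and differences are given as descriptions, without a test. The question was whether genes of resident macrophages and genes of inflammatory myeloid cells were high in the same libraries.

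The T cells were CD4+CD25+ regulatory T cells (Treg, which restrain immune responses) and CD4+ conventional T cells (Tconv), sorted by FACS from the spleen of C57BL/6 mice. Each cell type came from wild-type mice of 2 months (young), wild-type mice older than 18 months (aged) and Dcaf1-deficient mice of 2 months, giving 6 groups of 2 libraries. Dcaf1 encodes a substrate receptor of a CUL4 ubiquitin ligase, and the series title ties it to senescence of Treg through reactive oxygen species. The labels give neither the deleted allele, a Cre driver nor the sex, and do not say whether libraries came from separate mice, so a p-value measures only the spread between these libraries.

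Complement C1q, which starts the classical complement pathway, is assembled from the chains encoded by C1qa, C1qb and C1qc, and tissue macrophages are its main source. Macrophages of the splenic red pulp take up old red blood cells and break down their haem with haem oxygenase 1, the product of Hmox1, while ferroportin (Slc40a1) exports the freed iron. Stab1 encodes stabilin-1, a scavenger receptor of macrophages and of the endothelium that lines sinuses. Irg1, now named Acod1, encodes the mitochondrial enzyme that makes itaconate from cis-aconitate, and it is known for its strong induction in myeloid cells exposed to bacterial products.

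In mm10 with GENCODE M21, C1qa lies on chromosome 4 from 136895917 to 136898803 and C1qb from 136880129 to 136886187, with C1qc between them, all on the minus strand within 18.7 kb. Hmox1 is on chromosome 8 from 75093621 to 75100589 on the plus strand. Stab1 (31139013 to 31168641, minus strand) and Irg1 (103046977 to 103056573, plus strand) are far apart on chromosome 14. The bases before the start of C1qb, C1qc, Stab1 and Irg1 are shown. C1qa and Hmox1 had no entry among the promoter sequences used and are named only. The sequences are from RefSeq (GRCm38.p6), 5′ to 3′ on the gene's strand, and stop before the first annotated start. Capitals mark GAGGAA, in either orientation, which holds the GGAA core bound by ETS factors such as PU.1 of myeloid cells.
C1qb, 250 bases, chr4:136886201-136886450, minus strand: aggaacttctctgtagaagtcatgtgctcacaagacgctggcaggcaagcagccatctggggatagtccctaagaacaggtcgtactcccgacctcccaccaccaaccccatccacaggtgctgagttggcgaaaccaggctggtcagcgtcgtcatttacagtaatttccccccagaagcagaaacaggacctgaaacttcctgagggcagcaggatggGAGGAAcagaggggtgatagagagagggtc
C1qc, 99 bases, chr4:136893066-136893164, minus strand: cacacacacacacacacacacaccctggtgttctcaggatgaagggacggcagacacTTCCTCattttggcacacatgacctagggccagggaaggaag
Stab1, 250 bases, chr14:31168642-31168891, minus strand: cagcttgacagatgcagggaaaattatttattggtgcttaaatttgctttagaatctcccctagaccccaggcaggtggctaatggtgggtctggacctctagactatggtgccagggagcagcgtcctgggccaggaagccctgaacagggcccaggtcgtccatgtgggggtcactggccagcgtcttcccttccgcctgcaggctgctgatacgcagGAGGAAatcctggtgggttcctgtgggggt
Irg1, 215 bases, chr14:103046762-103046976, plus strand: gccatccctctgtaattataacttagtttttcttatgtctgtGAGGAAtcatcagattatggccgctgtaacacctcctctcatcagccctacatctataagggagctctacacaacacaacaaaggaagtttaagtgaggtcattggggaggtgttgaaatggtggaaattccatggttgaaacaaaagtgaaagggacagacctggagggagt

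Each of the 4 windows held GAGGAA or its reverse complement once. The same bases relative to the start held it in 23.3% of all 32851 RefSeq promoters for the C1qb and Stab1 windows, in 9.91% for the C1qc window and in 19.96% for the Irg1 window. Of 8 motifs searched on both strands, the other 7 were in none of these windows: the AP-1 type TGANTCA, the NF-kB type GGGNNTTCC, the C/EBP type TTGCNNAA, the MAF half-site type TGCTGAC, the ISRE type GAAANNGAA, the E-box type CACGTG and the TATA type TATAAA. No letters searched set the Irg1 window apart from those of C1qb and Stab1. A match is a run of letters and not a measured binding site. The absence of a match covers only these bases and the exact letters searched, so other forms of a site would be missed.

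Total estimated counts were 18358477 to 26852448 per library, so 3 counts equalled 0.105 to 0.167 CPM (counts scaled to the effective library size). The T cell genes Cd3e (191 to 843 CPM) and Foxp3 (535 to 1986 CPM in Treg, 47.7 to 675 in Tconv) were present in every library. Dcaf1, listed as Vprbp, was at 101 to 144 CPM in Treg and 90.6 to 147 CPM in Tconv; counts summed over all exons give no check of a deletion. The library labelled aged Treg 1 was unlike the other aged Treg library. Of 66 pairs of libraries, it and Dcaf1-deficient Treg 1 were the closest (SD of the log2 ratio 0.252 over 7984 genes). The 2 aged Treg libraries were at 1.20. The 2 young Treg libraries were nearly as far apart, at 1.16, and young Treg 2 was at 0.619 from the library labelled aged Treg 1. Results that rest on the library labelled aged Treg 1 are therefore given with and without it. In bulk RNA, fewer cells of a type and less RNA per cell cannot be told apart.

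C1qa and C1qb were high in 4 Treg libraries and low in the other two. Young Treg 1 and 2 had C1qa levels of 9.78 and 239 CPM, against 567 and 96.2 CPM in aged Treg 1 and 2 and 694 and 756 CPM in the Dcaf1-deficient Treg. Among Tconv its levels were 0.282 and 13.8 CPM in the young, 3.61 and 1.85 CPM in the aged and 56.5 and 55.4 CPM in the Dcaf1-deficient libraries. The young Treg libraries thus lay 1 below and 1 above aged Treg 2, while both Dcaf1-deficient libraries exceeded both young ones in each cell type.

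C1qb followed the same libraries. Its levels were 8.98 and 245 CPM in young Treg, 642 and 101 CPM in aged Treg and 769 and 904 CPM in Dcaf1-deficient Treg. In Tconv they were 0.846 and 14.9 CPM in the young, 3.67 and 3.17 CPM in the aged and 62.4 and 64.0 CPM in the Dcaf1-deficient libraries. Per library, the ratio of C1qb to C1qa CPM stayed between 0.918 and 1.20 in the 6 Treg libraries. The third chain gene, C1qc, ranged from 9.78 CPM in young Treg 1 to 880 CPM in Dcaf1-deficient Treg 2, and its ratio to C1qa was 0.949 to 1.16 in Treg. In young Tconv 1, where C1qa had 6 counts, these ratios rest on few reads.

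Hmox1 was high in the same 4 libraries as C1q. Young Treg 1 and 2 held 30.2 and 792 CPM, against 2260 and 73.1 CPM in aged Treg and 2683 and 3065 CPM in Dcaf1-deficient Treg. Tconv libraries held 5.12 and 53.3 CPM in the young, 29.9 and 59.5 CPM in the aged and 209 and 217 CPM in the Dcaf1-deficient libraries. The aged and young libraries overlapped in both cell types, and the Dcaf1-deficient libraries lay above both.

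The level of Hmox1 per C1qa was similar in 8 of the 12 libraries and departed from this in aged Treg 2, both aged Tconv and young Tconv 1. CPM are not divided by gene length, so such a ratio is compared only between libraries. It was 3.09 to 4.05 in 5 Treg libraries and 0.759 in aged Treg 2. In Tconv it was 3.70 to 3.93 in young Tconv 2 and the Dcaf1-deficient libraries, 8.28 in aged Tconv 1, 18.2 in young Tconv 1 and 32.2 in aged Tconv 2. Aged Treg 2 therefore held less Hmox1 per C1qa than the other Treg libraries and aged Tconv 2 more.

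Stab1 followed other libraries. It was at 2.68 and 2.35 CPM in the young Treg libraries, 20.99 and 185 CPM in aged Treg and 12.1 and 12.6 CPM in Dcaf1-deficient Treg. Tconv had 0.563 and 0.552 CPM in the young, 10.4 and 44.99 CPM in the aged and 1.90 and 1.45 CPM in the Dcaf1-deficient libraries. Both young libraries were lowest in each cell type, and the aged libraries were the highest. Young Treg 1 and 2, which differed by more than an order of magnitude in C1qa, were alike in Stab1.

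Irg1 had at most 6 counts in 6 of the 12 libraries, 15 to 103 counts in 5 and 3088 in 1. It had 0 and 6 counts in young Treg (0 and 0.260 CPM), 15 and 103 counts in aged Treg (0.568 and 4.74 CPM) and 18 and 38 counts in Dcaf1-deficient Treg (0.633 and 1.59 CPM). In Tconv it had 2 counts and 1 count in the young (0.0939 and 0.0551 CPM), 37 and 3088 counts in the aged (2.06 and 147 CPM) and 2 and 4 counts in the Dcaf1-deficient libraries (0.0976 and 0.193 CPM). The count of 0 in young Treg 1 allows a level of up to 0.141 CPM, a limit that covers counting error only. Aged Tconv 2 was the highest library for Irg1, and its C1qa of 1.85 CPM was among the 2 lowest.

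**Figure D1:**
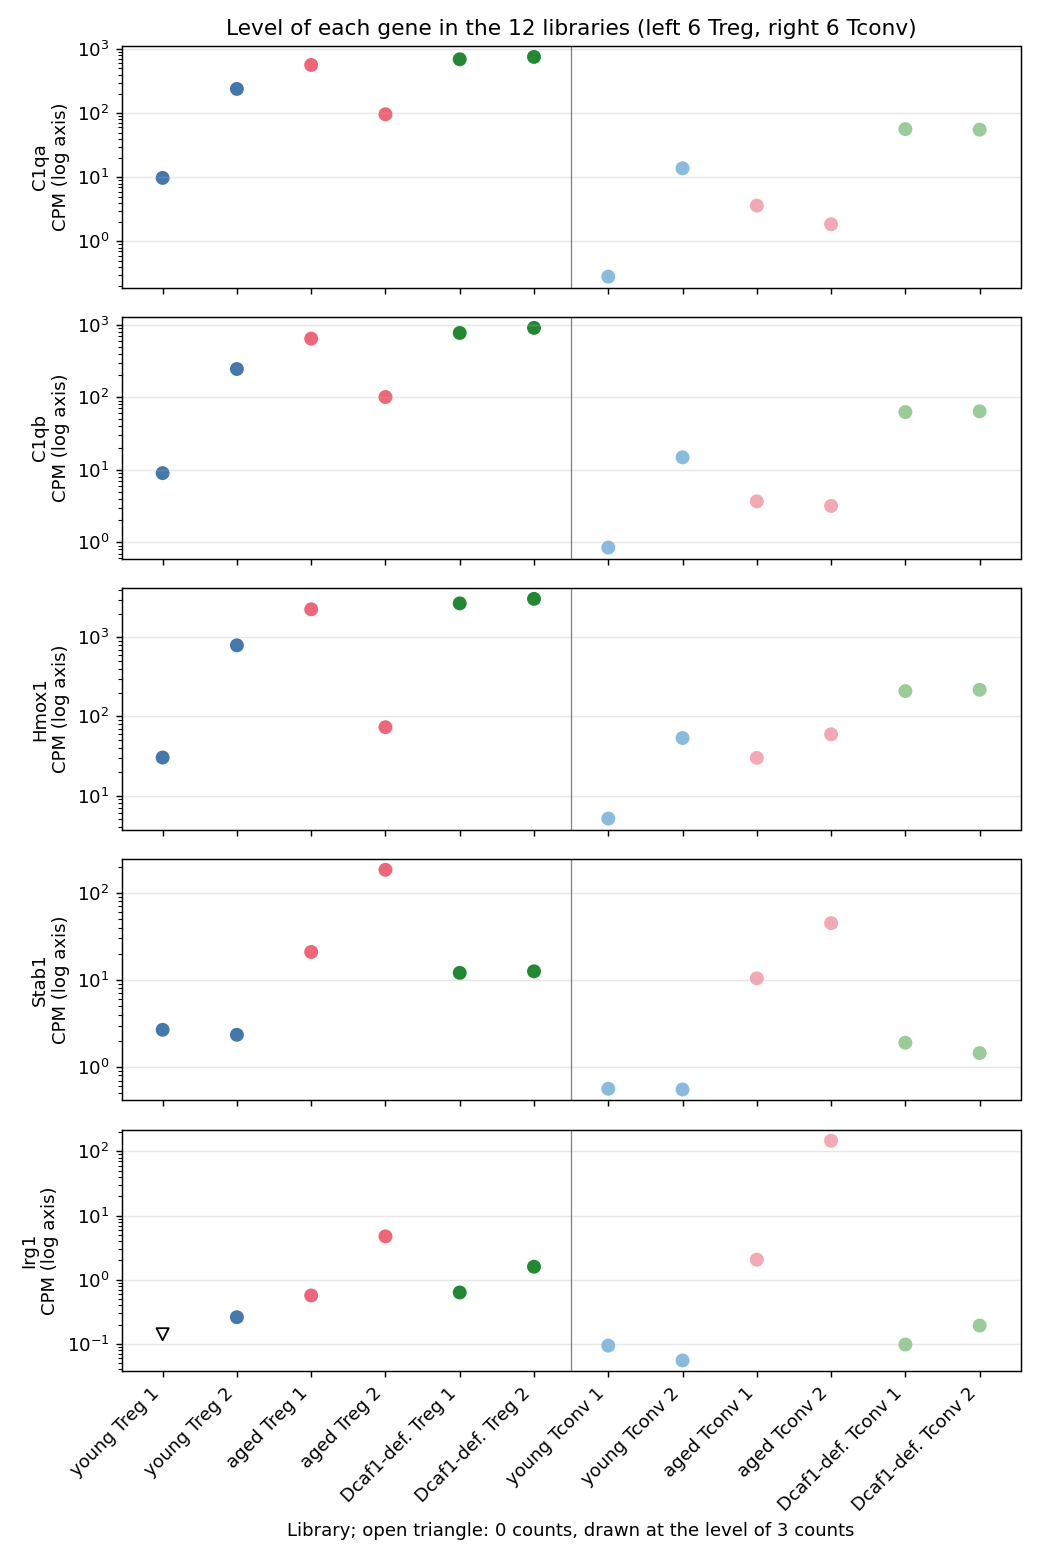
Levels of the 5 genes (y axis, CPM on a log axis, 1 panel a gene) in each of the 12 libraries (x axis; 6 Treg on the left, 6 Tconv on the right; points are single libraries coloured by group). C1qa, C1qb and Hmox1 share their 4 highest libraries, whereas Stab1 peaks in aged Treg 2 at 185 CPM and Irg1 in aged Tconv 2 at 147 CPM; the open triangle stands for 0 counts, drawn at the level of 3 counts.

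The order of the libraries separated the 5 genes into 2 sets. For C1qa, C1qb and Hmox1 the 4 highest libraries were Dcaf1-deficient Treg 2 and 1, aged Treg 1 and young Treg 2, in that order. For Stab1 they were aged Treg 2, aged Tconv 2, aged Treg 1 and Dcaf1-deficient Treg 2, and for Irg1 they were aged Tconv 2, aged Treg 2, aged Tconv 1 and Dcaf1-deficient Treg 2. Neighbours in these orders were often close, as with the Dcaf1-deficient Treg libraries for Stab1 (12.6 and 12.1 CPM). Aged Treg 2 and aged Tconv 2 are the only libraries whose titles carry the tag L3 (the others carry L4 or L5), whose meaning the labels do not give. Within the aged groups the tag and the replicate cannot be told apart, and a part of the tag in these levels was not tested within a group.

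Correlations over the 12 libraries gave the same picture and are descriptions, since the libraries share groups and cell types. On log2 CPM, Pearson's r was 0.995 between C1qa and C1qb and 0.94 between C1qa and Hmox1. Between Stab1 and Irg1 it was 0.77, with 0.88 over the 6 Treg and 0.95 over the 6 Tconv libraries. C1qa had an r of 0.31 with Stab1 (0.21 within Treg and -0.18 within Tconv) and of -0.10 with Irg1 (0.51 within Treg and -0.35 within Tconv). Without aged Tconv 2, the r of C1qa was 0.51 with Stab1 and 0.37 with Irg1, so the low values rest in part on that library. Without the library labelled aged Treg 1, they were 0.25 and -0.10. Leaving out the 2 libraries farthest from the median of C1qa, young Tconv 1 and aged Tconv 2, gave 0.36 with Stab1 and 0.27 with Irg1.

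**Figure D2:**
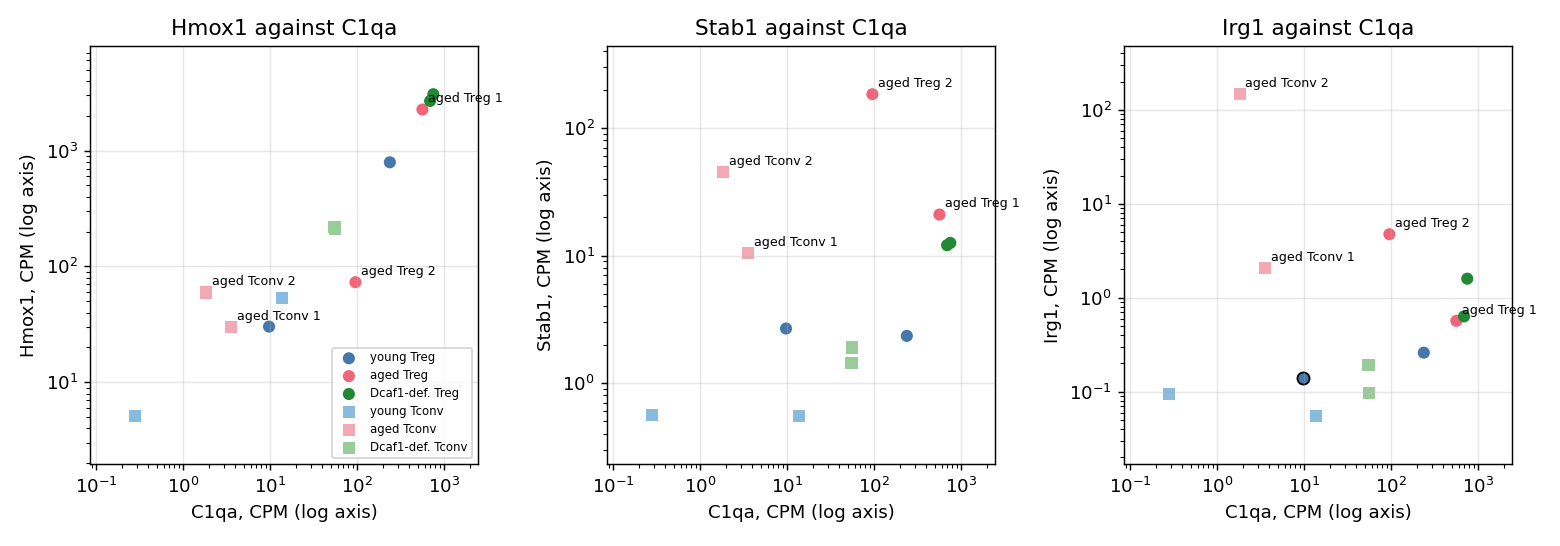
Hmox1, Stab1 and Irg1 (y axes, CPM, log axes) against C1qa (x axis, CPM, log axis), each point a library, circles for Treg and squares for Tconv, coloured by group; the outlined point is a library with 0 counts, drawn at the level of 3 counts. Hmox1 climbs with C1qa, with aged Treg 2 below and aged Tconv 2 above the other points, while the highest Stab1 and Irg1 points (185 and 147 CPM) sit at middle or low C1qa (96.2 and 1.85 CPM).

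Stab1 and Irg1 were not interchangeable either. The level of Irg1 per Stab1 was 3.26 in aged Tconv 2 and at most 0.197 in the other 11 libraries. It was 0.026 in aged Treg 2, the library with the most Stab1. Stab1 per C1qa was 1.92 in aged Treg 2 and 24.3 in aged Tconv 2, with 2.89 in aged Tconv 1, 2.00 in young Tconv 1 (where C1qa had 6 counts) and 0.274 in young Treg 1. In the other 7 libraries it was 0.0098 to 0.0399.

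The genes whose levels were most like each of the 5 were ranked by Pearson's r over the 12 libraries among the 7529 tested genes that averaged 4 CPM or more. For C1qa the first was C1qc (r = 0.996), followed by Mpzl1, Slc1a3, Vcam1 and Rab3il1. C1qb shared C1qc (r = 0.999), Mpzl1, Rab3il1 and Slc1a3, and added Tfec. For Hmox1 the first was Galnt3 (r = 0.987), then Paqr9, Pilrb1, the formyl peptide receptor Fpr1 and transferrin, Trf. The rule had kept the 5 genes themselves out of the ranking.

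None of these genes was among the 5 most like Stab1 or the 5 most like Irg1. This follows from the low r of C1qa, C1qb and Hmox1 with Stab1 and Irg1 and is not a separate result. Stab1 was most like Prdm1 (r = 0.991), the gene of the transcription factor Blimp-1, then Scin, the T cell costimulatory receptor gene Icos, Serpina3g and Cntln. Levels of Prdm1 were 34.0 and 42.0 CPM in young Treg, 117 and 514 CPM in aged Treg and 84.6 and 77.6 CPM in Dcaf1-deficient Treg. Its Tconv levels were 18.3 and 19.6 CPM in the young, 98.0 and 189 CPM in the aged and 29.9 and 33.6 CPM in the Dcaf1-deficient libraries. As with Stab1, the young libraries were lowest and aged Treg 2 highest. Irg1 was most like Mafg (r = 0.975), then the glycolytic gene Aldoa, Pkn3, Lsr and Timp2, and Mafg was at 52.3 CPM in aged Tconv 2 against 10.0 to 29.1 CPM in the other libraries.

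Genes of resident macrophages were then taken from a list of 22, of which 18 were in the table and tested. Their summed level was 225 and 4538 CPM in young Treg, 11257 and 1155 CPM in aged Treg and 13180 and 16360 CPM in Dcaf1-deficient Treg. The Tconv sums were 30.1 and 306 CPM in the young, 180 and 528 CPM in the aged and 1120 and 1219 CPM in the Dcaf1-deficient libraries. Most of the sum in aged Treg 2 and in aged Tconv 2 came from Axl, given below. Of the 18 genes, 16 had the same 4 highest libraries as C1qa, or 88.9%, against 876 of 9490 tested genes outside the 5, or 9.23%. None was highest in aged Tconv 2 or aged Treg 2. Their median r was 0.96 with C1qa, 0.93 with Hmox1, 0.08 with Stab1 and -0.26 with Irg1. For Stab1 and Irg1 the name macrophage transcript thus rests on where they are known to be expressed, not on levels that ran with this list.

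Single genes of that list showed the range. Vcam1, an adhesion molecule of red pulp macrophages, was at 29.4 and 843 CPM in the young Treg libraries, 2218 and 98.4 CPM in aged Treg and 2569 and 2975 CPM in Dcaf1-deficient Treg. Per C1qa it was 3.0 to 3.94 in 5 Treg libraries and 1.02 in aged Treg 2. The mannose receptor gene Mrc1 per C1qa was 1.14 to 1.66 in those 5 libraries and 0.213 in aged Treg 2, and Cd5l per C1qa was 0.592 to 1.18 in those 5 and 0.233 in aged Treg 2. In aged Treg 2, Hmox1 was thus low per C1qa together with these genes. Axl, a receptor for dying cells, was highest in Dcaf1-deficient Treg 2, as C1qa was. It was also at 713 CPM in aged Treg 2 and 512 CPM in aged Tconv 2. Axl thus made up most of the list's sums of 1155 and 528 CPM in these libraries. Its r was 0.80 with C1qa, 0.84 with Hmox1, 0.74 with Stab1 and 0.48 with Irg1. Mertk, its relative, had 0 counts in young Tconv 1 and aged Tconv 2.

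Genes listed as inflammatory myeloid did not follow 1 set of libraries. The libraries are of sorted T cells, and which cells made these transcripts was not tested. Of a list of 26, 21 were in the table and 18 were tested. Of the 18, 3 (16.7%) had the same 4 highest libraries as C1qa, against 9.23% of all genes. In aged Tconv 2, 6 were highest, or 33.3% against 18.3% of all genes, and in aged Treg 2 it was 3, or 16.7% against 12.4%. The summed level was 92.5 and 237 CPM in young Treg, 292 and 487 CPM in aged Treg and 299 and 407 CPM in Dcaf1-deficient Treg. For Tconv it came to 85.3 and 230 CPM in the young, 312 and 1441 CPM in the aged and 281 and 278 CPM in the Dcaf1-deficient libraries.

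Some cytokine genes of this list ran with either of the 2 sets, and others with neither. Tnf, the most abundant tested gene of the list, had an r of 0.17 with C1qa, 0.47 with Stab1 and 0.36 with Irg1. Il1b had an r of 0.62 with C1qa and -0.27 with Irg1. Il1a, of the interleukin-1 family, had an r of 0.93 with C1qa and -0.25 with Irg1, and was at 37.3 CPM in Dcaf1-deficient Treg 2 against 0.143 CPM in aged Tconv 2. Il1rn, the antagonist of the interleukin-1 receptor, had an r of 0.06 with C1qa and 0.95 with Irg1, with 359 CPM in aged Tconv 2 and 90.5 CPM in aged Treg 2 against at most 9.27 CPM elsewhere. The neutrophil chemoattractant genes Cxcl2 (254 CPM) and Cxcl3 (204 CPM) were also highest in aged Tconv 2, and next highest in aged Treg 2 (72.3 and 21.7 CPM). The chemokine gene Cxcl10 had an r of 0.96 with Stab1 and was highest in aged Treg 2, at 94.3 CPM. Ptgs2, the inducible cyclooxygenase gene, followed neither set, with an r of -0.39 with C1qa and -0.20 with Irg1. The median r of the list was 0.40 with C1qa, 0.30 with Stab1 and 0.22 with Irg1. Treg genes ran closer to Stab1 than either myeloid list did. Of 7 tested Treg genes, 6 were highest in aged Treg 2, or 85.7% against 12.4% of all genes. Their median r was 0.79 with Stab1, 0.33 with C1qa and 0.48 with Irg1, and their part in the level of Stab1 was not tested.

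**Figure D3:**
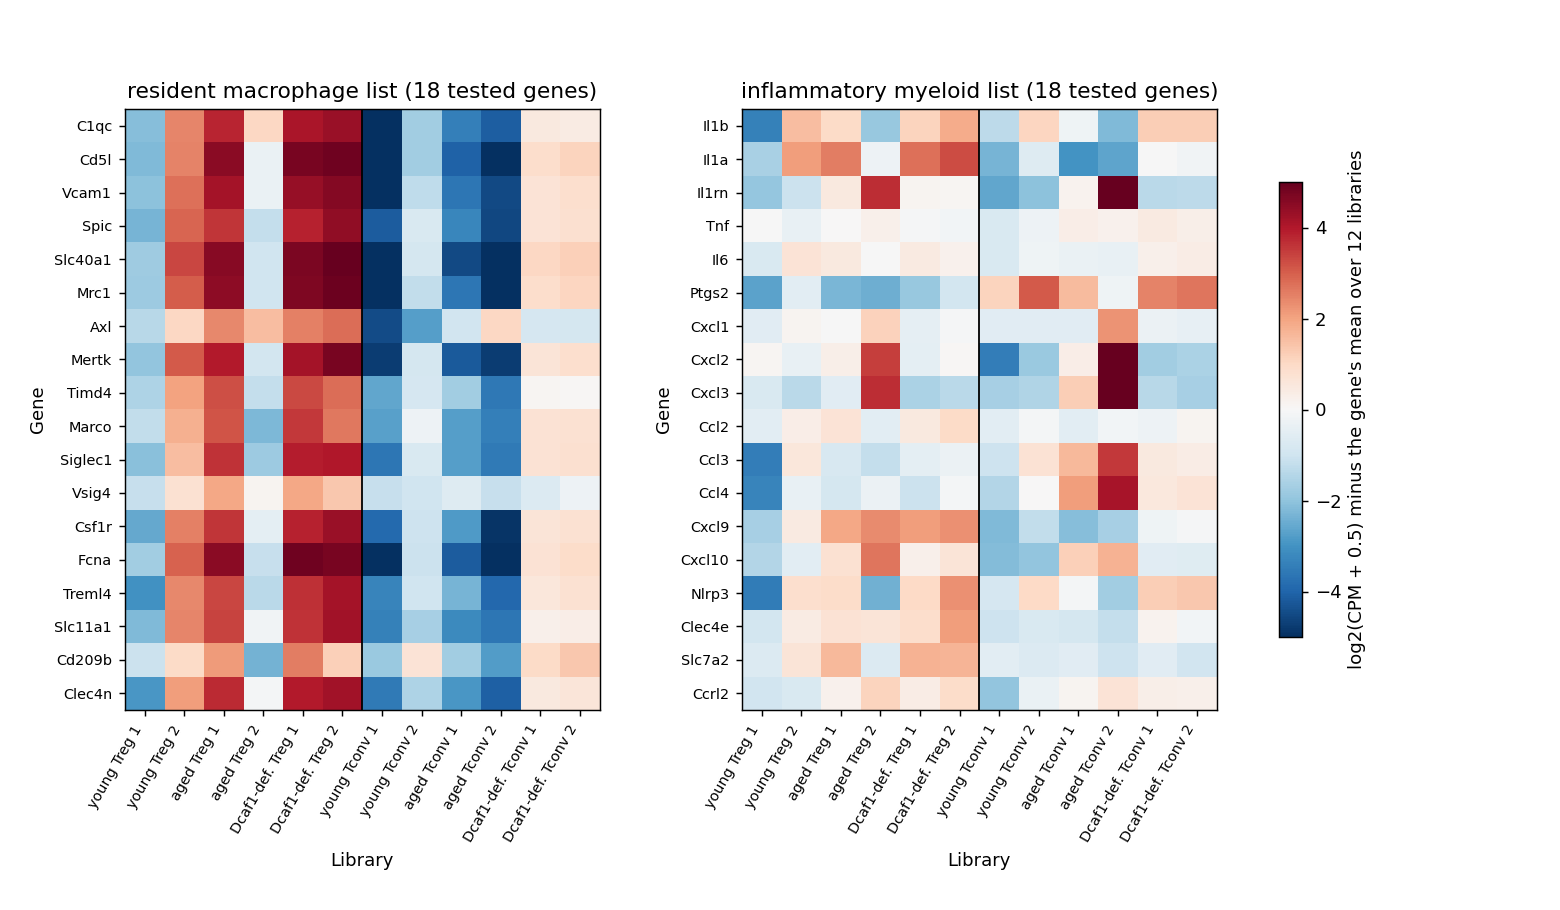
Levels of the 18 tested resident macrophage genes (left) and 18 tested inflammatory myeloid genes (right), 1 gene a row, in the 12 libraries (columns, Treg left of the line). Colour is log2(CPM + 0.5) minus the gene's mean over the 12 libraries, with red high and blue low and the ends of the scale also holding more extreme values; 16 of the left genes share the 4 highest libraries of C1qa, and 6 of the right genes are highest in aged Tconv 2.

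Other cell types' genes moved with these levels, and their part in the result was not tested. Of 9 tested B cell genes, 8 had the same 4 highest libraries as C1qa. Their summed level was 95.5 to 3079 CPM in young Treg, 126 to 2381 CPM in aged Treg and 2784 to 2900 CPM in Dcaf1-deficient Treg, and 48.1 to 393 CPM in Tconv. Of 10 erythroid genes, which mark red blood cells, 2 had those 4 libraries, though all 10 were highest in Dcaf1-deficient Treg 2. The erythroid sum was 27.7 to 1594 CPM in young Treg, 155 to 4589 CPM in aged Treg and 5402 to 12211 CPM in Dcaf1-deficient Treg. The sum of 14 T cell genes moved the other way in Treg, from 9159 CPM in young Treg 1 and 9024 CPM in aged Treg 2 to 3912 CPM in Dcaf1-deficient Treg 2. In Tconv it was 11287 to 12474 CPM, with 12359 CPM in aged Tconv 2.

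Aged Treg 2 and aged Tconv 2, the highest libraries for Stab1 and for Irg1, had other values of these lists. In aged Treg 2 the B cell sum was 126 CPM and the erythroid sum 155 CPM, and in aged Tconv 2 they were 393 CPM, the most of the 6 Tconv libraries, and 32.2 CPM. That B cell sum did not stand for the whole list, as Cd79a was at 4.89 CPM in aged Tconv 2, its lowest library. Of the 9 B cell genes, 2 were higher in aged than in young Tconv (median log2 difference -1.29), with Cd22 the most (2.47). Dcaf1-deficient Treg 2, among the 4 highest libraries for both genes, had sums of 2900 and 12211 CPM, and the library labelled aged Treg 1, among the 4 highest for Stab1, had 2381 and 4589 CPM. Neutrophil genes summed to 79.3 CPM in aged Treg 2 and 716 CPM in Dcaf1-deficient Treg 2. In aged Tconv 2 they summed to 123 CPM, the most of the 6 Tconv libraries, and 1 of the 11 tested, Lcn2, was highest there. Xist, a transcript of female cells, was at 1263 to 2018 CPM in 5 libraries (aged Treg 2, Dcaf1-deficient Treg 2, aged Tconv 2 and both Dcaf1-deficient Tconv) and at most 2.95 CPM in the others. Irg1 was at 0.0976 to 1.59 CPM in the other 3 Xist-high libraries. Within the aged groups, Xist status, the tag L3 and the replicate coincided and cannot be told apart. A part of Xist status in the levels of Stab1 and Irg1 was not tested.

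**Figure D4:**
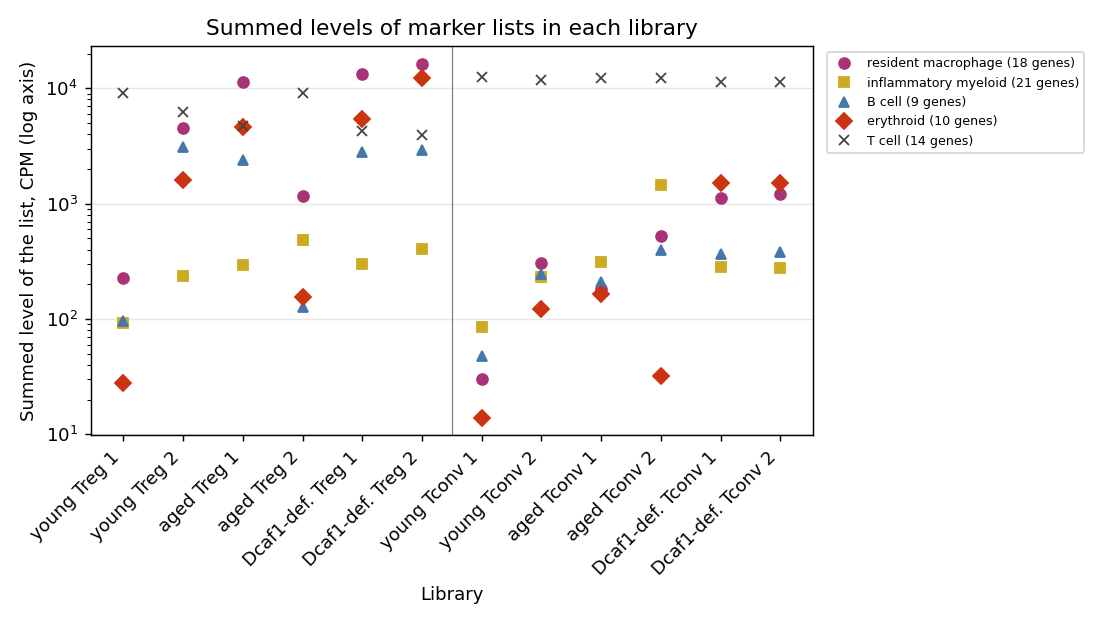
Summed CPM (y axis, log axis) of 5 marker lists in each library (x axis; Treg left of the line, Tconv right; 1 point a list and library). The resident macrophage, B cell and erythroid sums are high in the same 4 Treg libraries, where the T cell sum is 3912 to 6241 CPM, and the inflammatory myeloid sum peaks at 1441 CPM in aged Tconv 2.

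Dcaf1-deficient against young Treg set all 5 genes higher in both Dcaf1-deficient libraries. The ratio of group means was 5.82 for C1qa, 6.59 for C1qb, 6.99 for Hmox1 and 4.91 for Stab1. Irg1 was at 1.11 ± 0.680 against 0.130 ± 0.184 CPM (SD, n = 2). The young Treg libraries were far apart in C1qa (9.78 and 239 CPM), C1qb (8.98 and 245 CPM) and Hmox1 (30.2 and 792 CPM). The ratios of these genes therefore depend strongly on which young library is taken. The groups did not overlap for any of the 5, which is a description, since 35.2% of the 9495 tested genes had both Dcaf1-deficient libraries above both young ones. All 18 resident macrophage genes lay above in this way, with a median log2 difference of 2.53 (all tested genes -0.01), as did 9 of the 18 inflammatory genes (median 1.20). All 10 erythroid genes (median 3.78), 10 of 11 neutrophil genes (4.86) and 3 of 9 B cell genes (0.86) lay above too. All 14 T cell genes lay below, against 36.9% of all genes. The edgeR quasi-likelihood test with Benjamini-Hochberg adjustment called 0% of genes higher and 0% lower, although 2359 had an unadjusted p under 0.05, 1 of them a resident macrophage gene, and DESeq2 called 1185.

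The comparison of aged with young Treg shares its 2 young libraries with the comparison above. It gave ratios of group means of 2.66 for C1qa, 2.93 for C1qb and 2.84 for Hmox1, with overlapping groups. These rested on the library labelled aged Treg 1: without it the log2 difference turned from 1.41 to -0.37 for C1qa, from 1.55 to -0.34 for C1qb and from 1.505 to -2.49 for Hmox1. Without young Treg 2 it was 5.08, 5.37 and 5.27. For Stab1 the groups did not overlap, as for 20.3% of the 9495 tested genes in this direction. Its ratio of means was 40.9, and its log2 difference was 5.35 with the library labelled aged Treg 1 and 6.20 without it. Without aged Treg 2 the difference of Stab1 was 3.06. Irg1 had 118 counts against 6, a rate ratio of 18.1 (95% interval 8.08 to 50.4, counting error only), and a log2 difference of 4.25 with and 5.09 without the library labelled aged Treg 1.

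In that comparison 1 of the 18 resident macrophage genes, Axl, lay above in both aged libraries, and 8 of the 18 inflammatory genes did, against 20.3% of all tested genes. The resident count was 18 without aged Treg 2 and 16 without young Treg 2, and it stayed at 1 without the library labelled aged Treg 1. The median log2 difference was 1.35 for the resident and 0.76 for the inflammatory list, against 0.02 over all genes. edgeR called 0% of genes higher and 0% lower, with 1697 at an unadjusted p under 0.05 (0 resident and 5 inflammatory genes), 722 called by DESeq2 and 2 by limma on the deposited log2 values. Without the library labelled aged Treg 1, edgeR called 434.

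In aged against young Tconv, Stab1 and Irg1 were higher in both aged libraries while the C1q genes and Hmox1 overlapped. This is a description, since 29.9% of the 9495 tested genes had both aged libraries above both young ones. The aged groups were lower on average for C1qa (ratio 0.387) and C1qb (0.436), with overlapping values, and Hmox1 was at 44.7 ± 20.9 against 29.2 ± 34.1 CPM (SD, n = 2). The log2 difference without young Tconv 2 turned to 3.23 for C1qa and 2.00 for C1qb, and that of Hmox1 without young Tconv 1 turned to -0.25. Stab1 was 49.7 times as high in the aged mean, with a log2 difference of 5.62, or 4.21 without aged Tconv 2. Irg1 had 3125 counts against 3, a rate ratio of 1054 (95% interval 360 to 5111, counting error only), and 3088 of those counts came from aged Tconv 2. Without that library its log2 difference was 4.67, and neither aged library overlapped the young ones.

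In aged Tconv, 4 inflammatory genes rose by edgeR's quasi-likelihood test with Benjamini-Hochberg adjustment, which called 6.38% of all genes higher and 2.47% lower. They were Cxcl10 (log2 fold change 3.77, SE 0.65, adjusted p = 0.0222), the cytokine gene Tnf (0.78, SE 0.19, adjusted p = 0.0456), Il1rn (7.62, SE 1.92, adjusted p = 0.0486) and Cxcl3 (10.30, SE 2.62, adjusted p = 0.0498). The count of 4 fell to 0 without young Tconv 1, without young Tconv 2 and without aged Tconv 2, and was 6 without aged Tconv 1. It was 1 in a fit of Tconv alone, 2 with a term for the title tag, with no low-count filter or with limma, and 8 with DESeq2. Cxcl10 was at 33.4 and 49.7 CPM in the aged against 2.77 and 3.29 CPM in the young libraries, so both aged libraries were high. Cxcl3 was at 3.54 and 204 CPM against 0.0470 and 0.110 CPM, with aged Tconv 2 far above the other.

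By the overlap of groups, 8 of the 18 inflammatory genes and 1 of the 18 resident macrophage genes, Axl, lay above in both aged Tconv libraries, against 29.9% of all genes. edgeR called none of the 18 resident genes, of which 1 had an unadjusted p under 0.05 and 1 was called by DESeq2. Their median log2 difference was -1.97, and that of the inflammatory list 0.66. The complement component gene C3, not called, was at 28.9 and 2491 CPM in aged against 1.03 and 5.57 CPM in young Tconv (log2 difference 8.59, SE 2.38, edgeR adjusted p = 0.0619). Olr1, a scavenger receptor for oxidised lipoprotein, was at 0.780 and 132 CPM against 0.145 and 0.230 CPM (8.49, SE 2.29, edgeR adjusted p = 0.0577). Srxn1, the antioxidant sulfiredoxin gene on the haem and iron list, rose (4.71, SE 0.74, edgeR adjusted p = 0.0191), with 18.3 and 44.4 CPM in the aged against 1.18 and 1.21 CPM in the young. Treg markers were also high in aged Tconv, with Foxp3 at 334 and 675 CPM against 47.7 and 78.4 CPM, and their part in these differences was not tested.

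In Dcaf1-deficient against young Tconv, C1qa, C1qb, Hmox1 and Stab1 were higher in both Dcaf1-deficient libraries. Xist was at 1321 and 1339 CPM in the Dcaf1-deficient and at 2.41 and 2.65 CPM in the young Tconv. Genotype and Xist status therefore cannot be told apart in this comparison. The ratio of group means was 7.93 for C1qa, 8.05 for C1qb, 7.30 for Hmox1 and 3.002 for Stab1, each without overlap. Irg1 also lay above, at 0.0976 and 0.193 CPM against 0.0939 and 0.0551 CPM. It had 6 counts against 3, a rate ratio of 1.92 (95% interval 0.409 to 11.8, counting error only), given as a description. All 18 resident macrophage genes (median log2 difference 2.72) and 13 of the 18 inflammatory genes (1.21) lay above, against 34.2% of all genes. So did all 10 erythroid genes (4.61), all 9 B cell genes (1.46) and 9 of 11 neutrophil genes (4.63), and their part in the result was not tested. edgeR called 0% of genes higher and 0% lower, with 954 at an unadjusted p under 0.05, 232 called by DESeq2 and, on the deposited log2 values, 11 of 11271 by limma, 7 of them among the 9495. Of the resident genes 1 had an unadjusted p under 0.05 and none was called by DESeq2.

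Treg against Tconv, taken as the mean of the differences in the 3 conditions, gave log2 differences of 4.93 for C1qa, 4.84 for C1qb, 4.09 for Hmox1 and 2.31 for Stab1. Irg1 was at -0.39, which turned to 1.34 without aged Tconv 2. Without the library labelled aged Treg 1 the values of the 5, in the same order, were 4.33, 4.21, 2.76, 2.59 and -0.11. The 6 Treg and 6 Tconv libraries overlapped for all 5, because young Treg 1 lay below the Dcaf1-deficient Tconv in C1qa, C1qb and Hmox1 and the aged Tconv lay above the young Treg in Stab1 and Irg1.

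In that comparison 17 of the 18 resident macrophage genes were higher in Treg by edgeR, with a median log2 difference of 4.63, against 11.5% of all genes called higher and 11.0% called lower. They included Axl (2.95, SE 0.56, adjusted p = 0.0127), C1qc (4.97, SE 1.00, adjusted p = 0.0153), the metal transporter gene Slc11a1 (4.63, SE 0.95, adjusted p = 0.0164) and Cd5l (5.62, SE 1.23, adjusted p = 0.0197), all by edgeR's quasi-likelihood test. Genes of other cell types were called in the same comparison: 6 of 9 B cell genes (median log2 difference of the list 3.999), 4 of 11 neutrophil genes (3.49) and 3 of 10 erythroid genes (3.52) were higher in Treg, and 10 of 14 T cell genes were lower (-0.90). Their part in the macrophage count was not tested. Cd209b was the resident macrophage gene not called (2.03, SE 1.09, edgeR adjusted p = 0.205). None of the 18 had all Treg libraries above all Tconv libraries, against 1.89% of all genes. The 17 depended on the libraries: the count was 10 without the library labelled aged Treg 1, 1 without young Tconv 1, 3 without either Dcaf1-deficient Treg library and 0 without either Dcaf1-deficient Tconv library. It was 4 without young Treg 2 or aged Tconv 1, 5 without aged Tconv 2, 8 without young Tconv 2 and 0 with a term for the title tag.

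Of the 18 inflammatory genes 4 were higher in Treg and 1 was lower by the same test, against 11.5% and 11.0% of all genes. The chemokine gene Cxcl9 (2.82, SE 0.43, edgeR adjusted p = 0.0063), Il1a (4.50, SE 0.99, edgeR adjusted p = 0.0199) and Clec4e, a receptor for mycobacterial lipid (3.003, SE 0.72, edgeR adjusted p = 0.0251), were among the 4. Ptgs2 was lower in Treg (-4.18, SE 0.69, edgeR adjusted p = 0.00827), at 0.282 to 2.95 CPM in Treg against 3.76 to 41.4 CPM in Tconv, without overlap. The count of 4 was 1 without any 1 of the 4 Dcaf1-deficient libraries or without young Tconv 1, and 0 with the tag term. It was 2 without young Treg 2, young Tconv 2 or aged Tconv 1.

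Genes that act with the 5 were compared between Treg and Tconv from 3 further lists. These share genes with the resident macrophage list, so their counts are not separate from its count. Called genes shared with it were C1qc (complement), Slc40a1, Slc11a1 and Spic (haem and iron), and Axl, Marco, Mertk, Mrc1 and Timd4 (scavenger receptor). The shares of all tested genes called in this comparison were 11.5% higher and 11.0% lower. Of 13 tested complement genes 6 were higher in Treg, among them Cfb (2.32, SE 0.39, edgeR adjusted p = 0.00916), C4b (4.08, SE 0.74, edgeR adjusted p = 0.0114) and C2 (4.08, SE 0.91, edgeR adjusted p = 0.0207). Of 17 haem and iron genes 9 were higher and 1 lower. The haem transporter gene Slc48a1 (1.40, SE 0.29, edgeR adjusted p = 0.0164) and the biliverdin reductase genes Blvra (0.81, SE 0.18, edgeR adjusted p = 0.0204) and Blvrb (2.92, SE 0.68, edgeR adjusted p = 0.0237) act on haem or its product and were higher. Of 12 scavenger receptor genes 7 were higher, including Stab2, the relative of Stab1 (5.18, SE 1.24, edgeR adjusted p = 0.0254).

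Stab2 did not share the libraries of Stab1. Levels were 1.60 and 70.8 CPM in young Treg, 151 and 7.31 CPM in aged Treg and 186 and 254 CPM in Dcaf1-deficient Treg. The Tconv libraries had 0.0469 and 4.08 CPM in the young, 0.167 and 0.619 CPM in the aged and 15.2 and 17.2 CPM in the Dcaf1-deficient libraries. Its high libraries were those of C1qa, whereas aged Treg 2, the highest for Stab1, was low.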

How the data were processed

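The samples were RNA sequencing libraries, enriched for poly(A) RNA, of Treg and Tconv sorted from spleen: 12 libraries in 6 groups of 2 taken from the titles. The 5 genes and all 15 gene lists were chosen with earlier results of these data known. The authors deposited estimated counts per gene, made with Salmon 0.9.1 and the build mm10 per the submitters' processing notes and summed with tximport per the file header; the annotation is not given in the sources used here. The authors also deposited log2 values, with DESeq2 named in the submitters' processing notes and the transform not stated. Listed genes outside these tables were not analysed here.

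Of 13404 rows, 11531 had a count and 9495 passed filterByExpr; 0 columns of per-sample values were left unused. Estimated counts were rounded and tested in R 4.3.3 with edgeR 4.0.16 (quasi-likelihood, TMM scaling, 1 fit of 12 libraries with 6 group means and 6 residual degrees of freedom, Benjamini-Hochberg, threshold 0.05 in each of 5 comparisons). With 18358477 to 26852448 counts per library, depth limits Irg1 most, and also C1qa and Stab1 in young Tconv. CPM use TMM-scaled totals, and log2 CPM a prior count of 2. The code was tested on simulated data. Named beside the 5 genes are the 5 genes most like each (mean of at least 4 CPM), up to 4 called and the 4 most abundant genes of each macrophage-side list, and Dcaf1, Xist, Cd79a, Hbb-bs, Cd3e and Foxp3. Others named, among them Cxcl2, Cd209b, Mafg and Olr1, were chosen after their values were seen. Alternatives were RLE size factors, no filter, DESeq2 1.42.0, a replicate block, a term for the title tag, limma 3.58.1 on the log2 values, fits of 1 cell type, a prior count of 0.5, unscaled totals and leaving out each library; a crossed block was added after seeing the data.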

Additional observations from a re-analysis of the deposited data

How the results depend on the processing

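Of 63 alternative values for each gene, the sign turned in 2 for C1qa, 3 for C1qb, 2 for Hmox1 and 1 for Irg1. Leaving out 1 library at a time, the log2 difference of aged against young Treg was -0.37 to 5.08 for C1qa, -0.34 to 5.37 for C1qb and -2.49 to 5.27 for Hmox1, lowest without aged Treg 1 and highest without young Treg 2. In aged against young Tconv it was -2.34 to 3.23 for C1qa, -2.12 to 2.00 for C1qb and -0.25 to 3.12 for Hmox1, lowest without young Tconv 1 and highest without young Tconv 2. C1qb there turned to 0.0472 with a tag term. Irg1 in Treg against Tconv was -1.92 to 1.34, turning without aged Tconv 2, and Stab1 turned in 0 of 63. Called genes in aged against young Tconv were 841, 437 with a tag term and 2043 with DESeq2. In Treg against Tconv they were 2134, 223 with a tag term and 3210 with DESeq2. On the same tested genes, DESeq2 called 722 in aged and 1185 in Dcaf1-deficient against young Treg, and 232 in Dcaf1-deficient against young Tconv, where edgeR called 0. Limma, over the 11271 genes of the log2 table, called 2 in aged against young Treg and 11 in Dcaf1-deficient against young Tconv, and a fit of 1 cell type called 16 in the last. The cause was not tested. Without 1 library at a time the counts were 0 to 434 in aged against young Treg (434 without aged Treg 1), 0 to 15 in Dcaf1-deficient against young Treg (15 without young Treg 2), 0 to 2340 in aged against young Tconv (0 without either young library, 93 without aged Tconv 2, 2340 without aged Tconv 1), 0 to 0 in Dcaf1-deficient against young Tconv and 491 to 3016 in Treg against Tconv. Where this left a group with 1 library, that library was assumed to vary like the other groups. The labels do not say that replicate numbers pair the libraries. Deviations of same-numbered libraries correlated at -0.66, 0.18, 0.03 and 0.08 in the 4 comparisons within a cell type, and across cell types at 0.68 (young), 0.27 (aged) and 0.04 (Dcaf1-deficient), so not every pair passed 0.1. With a replicate block the counts were 0, 0, 846 and 0, and 1915 in Treg against Tconv; a crossed block in aged against young Treg, added after the data were seen, gave 0. Depth limits Irg1, which had at most 3 counts in 4 libraries, and C1qa and Stab1 in young Tconv (6 counts of C1qa in young Tconv 1, 22 of Stab1 in both).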

Other observations

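Complement genes outside C1q differed in the libraries where they were high. C2 was at 42.3 to 72.9 CPM in the Dcaf1-deficient Treg and the library labelled aged Treg 1 and at 3.04 CPM in aged Treg 2, like the C1q genes. Cfb was highest in aged Treg 2, at 50.1 CPM, and at 2.43 CPM in aged Tconv 2, with an r of 0.92 with C1qa, 0.50 with Stab1 and 0.02 with Irg1. C3 was at 211 and 2491 CPM in these libraries, with an r of 0.31 with C1qa, 0.82 with Stab1 and 0.90 with Irg1. Itgb2, a chain of the complement receptors that leukocytes share, was at 816 to 1184 CPM in all 12 libraries.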
